A study of Mus musculus with 4 samples.

Results

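The 10 genes Fos, Fosb, Jun, Junb, Egr1, Atf3, Ier2, Dusp1, Nr4a1 and Zfp36 are immediate early genes. They were taken by symbol from the 17008 genes with a uniquely mapped read in any of 4 RNA sequencing libraries, and all 10 had reads in every library. Each library was made from macrophages sorted from C57BL/6J mice that were 6 to 8 weeks old. Normal mice were taken at day 0. Leukaemic mice had T-ALL, the acute lymphoblastic leukaemia of T cells, and were taken 21 days after transplantation of GFP-positive leukaemia cells without irradiation. Bone marrow and spleen were sampled in both conditions, which gives 1 library for each of normal bone marrow, T-ALL bone marrow, normal spleen and T-ALL spleen. The sources used here give neither the markers of the sort nor the number of mice behind a library nor any pooling. The design asks how macrophages in leukaemia, which the submitters call leukaemia-associated macrophages, differ from those of healthy mice.

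Immediate early genes are transcribed within minutes of a stimulus, without new protein synthesis. Growth factors, cytokines, microbial products and stress act through MAP kinases on factors already present, such as SRF with its ELK partners and CREB. Most of the products are transcription factors that act on a later wave of genes, and others, among them the phosphatase DUSP1 and the RNA-binding protein ZFP36, limit the response. In macrophages these genes are known as an early part of the response to microbial and inflammatory signals. Tissue handling is also known to induce them, and the time from tissue to lysis is not given.

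Levels are given as CPM, a gene's reads as a share of the library after scaling by the trimmed mean of M values (TMM). The scaled totals ran from 8939756 to 9856658 reads, so that 1 read was worth 0.102 to 0.112 CPM, and the members had 158 to 13834 reads each. With 1 library per group there is no spread between animals, no test and no p-value. Each ratio of CPM is followed in parentheses by its exact binomial 95% interval, which covers counting error only. The size rule for calling a gene higher or lower was a difference of 2-fold or more between values of CPM + 1, together with 10 CPM or more in whichever library was higher. All 16 macrophage core genes had reads in all 4 libraries, and RNA of other cells was present as well. Neutrophil precursor genes such as Elane and Mpo took 3.57% of the reads in normal bone marrow, 1.80% in T-ALL bone marrow and at most 0.0372% in the spleen libraries. Sex-linked transcripts moved with condition. Xist was at 849 to 861 CPM in the normal libraries and at 0.644 CPM (bone marrow) and 416 CPM (spleen) in T-ALL. The Y-linked Ddx3y had 874 and 532 reads in T-ALL bone marrow and spleen and 0 in the normal libraries. Sex and condition therefore cannot be told apart in these libraries. The T-ALL libraries also differed from each other, with 6 Xist reads in bone marrow and 3846 in spleen. The comparison of the T-ALL organs is thus not matched for sex-linked transcripts either.

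Promoters are shown for 4 of the genes, since promoters of this class are known targets of CREB and SRF. The part of such sites in the members' levels was not tested. RefSeq promoter windows (build GRCm38.p6) were used for 8 of the 10 genes, all but Egr1 and Ier2. The stretches below are the 150 bases just before the annotated start, read on the gene's strand, for Fos at chr12:85473740-85473889 (plus strand), Dusp1 at chr17:26508473-26508622 (minus strand), Nr4a1 at chr15:101266696-101266845 (plus strand) and Zfp36 at chr7:28379229-28379378 (minus strand). Capitals mark the core TGACG of the cAMP response element on either strand, its full form TGACGTCA, a TATA box (TATAAA or TATATA) and a CArG box, the binding motif of SRF. A TGACG on the opposite strand reads CGTCA, as in Nr4a1. The 4 shown hold the only matches to the full form, the TATA box and the CArG box among the 8, and are thus not typical of them. Jun held none of the marked motifs.
Fos: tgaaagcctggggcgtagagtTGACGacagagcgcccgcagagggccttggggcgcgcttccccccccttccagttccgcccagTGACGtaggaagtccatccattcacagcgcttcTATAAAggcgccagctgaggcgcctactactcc
Dusp1: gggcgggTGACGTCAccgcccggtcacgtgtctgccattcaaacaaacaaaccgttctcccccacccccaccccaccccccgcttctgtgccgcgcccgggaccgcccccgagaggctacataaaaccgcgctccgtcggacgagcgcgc
Nr4a1: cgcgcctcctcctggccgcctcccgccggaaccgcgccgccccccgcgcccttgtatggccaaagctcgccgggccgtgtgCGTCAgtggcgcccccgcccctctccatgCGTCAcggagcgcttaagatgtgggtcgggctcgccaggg
Zfp36: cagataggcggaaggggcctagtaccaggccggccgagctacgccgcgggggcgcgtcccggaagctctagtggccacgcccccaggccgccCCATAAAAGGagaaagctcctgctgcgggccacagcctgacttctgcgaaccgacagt

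Within 250 bases before the start, on either strand, TGACG stood in 6 of the 8 promoters (Atf3, Dusp1, Fos, Fosb, Junb and Nr4a1), against 17.9% of 27025 mouse promoters of the same length. The full TGACGTCA, which contains TGACG on both strands, stood in Dusp1 only, 143 to 136 bases before the start, against 1.62% of all promoters. Nr4a1 held 4 copies of TGACG, the stretch shown having those nearest the start, and Fos and Dusp1 held more than 1 each. The CArG box stood in Zfp36 only, 58 to 49 bases before the start (1.40% of all promoters), and a TATA box in Fos only (16.4%). The EGR motif (GCGTGGGCG or GCGGGGGCG) stood in 3 promoters, Fosb, Nr4a1 and Zfp36, against 3.05%. The SP1 box GGGCGG, which overlaps the EGR match in Fosb and Nr4a1, stood in 7 of 8, against 32.9%. The AP-1 site TGANTCA and the NF-kB site stood in none of the 8 windows (6.87% and 0.192% of all promoters). These matches describe letters in a short window and not binding. Motifs farther upstream, and any in Egr1 or Ier2, were not searched. A missing match therefore does not mean that a gene lacks the site.

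Relative to the library total, all 10 genes were lowest in normal bone marrow. Their summed level was 1809.5 CPM there, 6178 CPM in T-ALL bone marrow, 7424 CPM in normal spleen and 5587 CPM in T-ALL spleen. As a share of reads this was 0.182% (0.179 to 0.185, Wilson 95% interval), 0.612% (0.607 to 0.617), 0.739% (0.734 to 0.745) and 0.563% (0.559 to 0.568), the libraries being ordered as before. Normal bone marrow thus stood apart, and the other 3 libraries lay close together in this sum. These are bulk libraries, in which fewer cells of a type and less RNA per cell cannot be told apart.

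**Figure D1:**
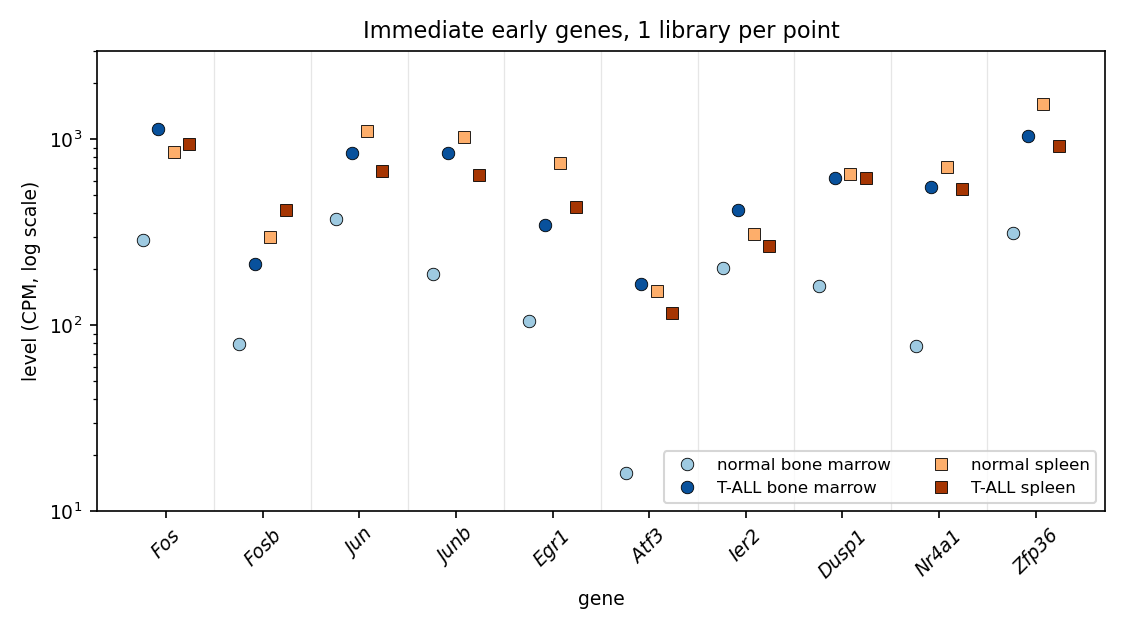
Level of each of the 10 immediate early genes in the 4 libraries, in CPM on a log scale, 1 point per library (circles bone marrow, squares spleen, dark T-ALL). Normal bone marrow is the lowest point for every gene, from 16.0 CPM for Atf3 to 371 CPM for Jun.

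Fos and Fosb encode the Fos partners of AP-1, the dimeric factor that Fos and Jun proteins form. Fos was at 288 CPM in normal bone marrow, 1132 CPM in T-ALL bone marrow, 859 CPM in normal spleen and 942 CPM in T-ALL spleen. It was therefore highest in T-ALL bone marrow, 3.93-fold above normal bone marrow (3.77 to 4.10), while the spleen libraries differed by 1.10-fold (1.06 to 1.13). Fosb was at 79.0, 213, 299 and 418 CPM in the same order of libraries. It was the only member that was highest in T-ALL spleen, 1.40-fold above normal spleen (1.33 to 1.47) and 1.96-fold above T-ALL bone marrow (1.86 to 2.07). The latter lies just under the 2-fold rule, and Fosb passed it with median-of-ratios scaling and with TMM scaling that left out the genes of other cells.

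Jun and Junb encode Jun proteins, which pair with Fos proteins or with each other. Jun was at 371, 843, 1115 and 679 CPM in normal bone marrow, T-ALL bone marrow, normal spleen and T-ALL spleen. Junb was at 190, 843, 1030.5 and 642 CPM. Both were highest in normal spleen and lower in T-ALL spleen, by 1.64-fold (1.59 to 1.70) for Jun and 1.61-fold (1.55 to 1.66) for Junb, which is short of 2-fold. Jun had the smaller difference in bone marrow, 2.27-fold (2.18 to 2.36) against 4.44-fold (4.22 to 4.67) for Junb.

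Per length, in the deposited RPKM, the make-up of the AP-1 families also differed between libraries. Junb had 0.886 times the RPKM of Jun in normal bone marrow and 1.73, 1.60 and 1.64 times that of Jun in T-ALL bone marrow, normal spleen and T-ALL spleen. Junb was thus the most abundant Jun transcript in 3 libraries and Jun in normal bone marrow. Fos made up 79.6% to 87.0% of the summed RPKM of Fos, Fosb, Fosl1 and Fosl2 in each library. The share of Fosb was 9.10% in T-ALL bone marrow and 19.7% in T-ALL spleen, and Fos had 9.55 and 4.05 times the RPKM of Fosb there. Fosl2, a Fos-related gene outside the members, was at 44.5 and 142 CPM in normal and T-ALL bone marrow and at 24.2 and 20.0 CPM in normal and T-ALL spleen. Jund, the third Jun gene, was at 206, 445, 659 and 570 CPM in the order normal bone marrow, T-ALL bone marrow, normal spleen, T-ALL spleen. In T-ALL, Fosl1 reached 0.429 CPM (bone marrow) and 1.19 CPM (spleen), and it had 0 reads in the normal libraries, where a count of 0 allows up to 3 reads (0.304 and 0.336 CPM).

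**Figure D2:**
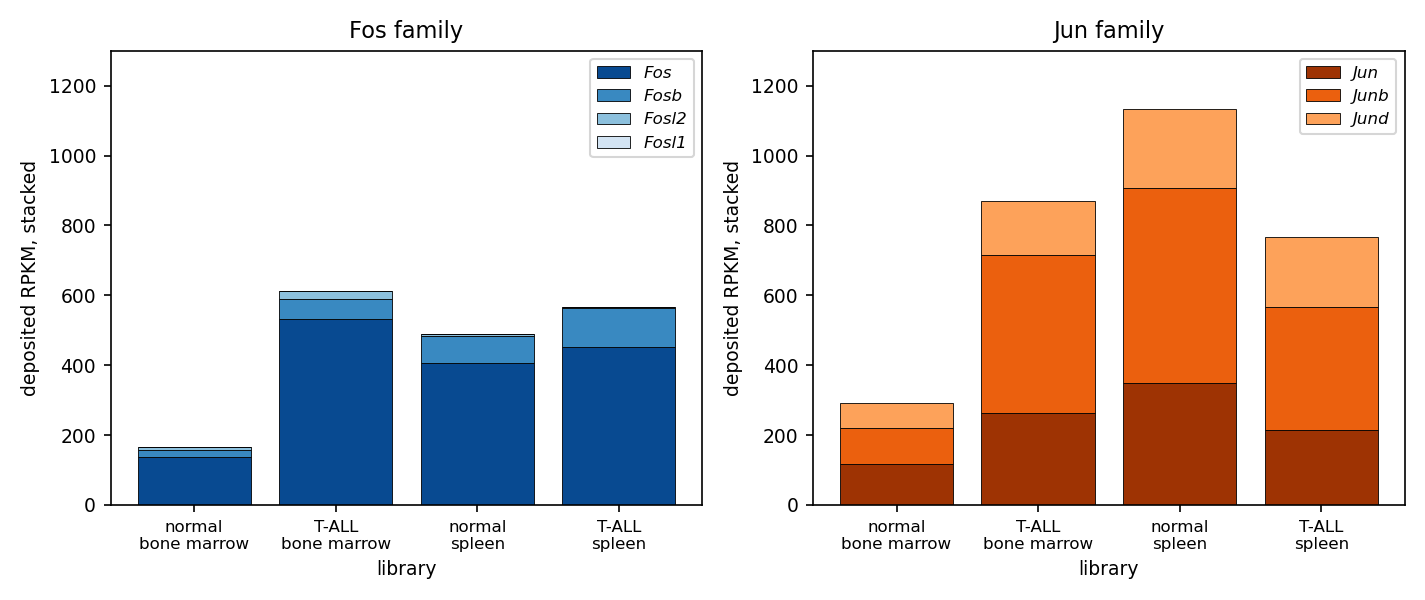
Deposited RPKM of the Fos genes (left) and the Jun genes (right), stacked, in each of the 4 libraries. The Fos family sums to 166 in normal bone marrow and 489 to 613 elsewhere, and the Jun family to 293 and 766 to 1134.

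Atf3 encodes a stress-induced factor of the ATF/CREB family that restrains inflammatory genes in macrophages. It was at 16.0 CPM (158 reads) in normal bone marrow, 167 CPM in T-ALL bone marrow, 153 CPM in normal spleen and 116 CPM in T-ALL spleen. Atf3 had the widest range of the members, 10.4-fold (8.84 to 12.3) between the bone marrow libraries, and the lowest RPKM in 3 of the 4 libraries. In normal bone marrow it ranked 7280th by RPKM among all genes, and 889th in T-ALL bone marrow. Its value in T-ALL bone marrow lay 1.09-fold (1.01 to 1.17) above that in normal spleen.

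Egr1 encodes a zinc finger factor linked to monocyte and macrophage differentiation. Its levels were 105 CPM in normal bone marrow, 348 CPM in T-ALL bone marrow, 746 CPM in normal spleen and 435 CPM in T-ALL spleen. Normal spleen was the highest library, 2.15-fold (2.06 to 2.24) above T-ALL bone marrow, a wider gap than that of any other member between these libraries. Egr1 also had the lowest ratio of the members between T-ALL and normal spleen, 1.72-fold lower (1.65 to 1.79), which is under 2-fold.

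Nr4a1 encodes an orphan nuclear receptor on which Ly6C-low monocytes depend. It was at 77.8, 557, 714 and 538 CPM in normal bone marrow, T-ALL bone marrow, normal spleen and T-ALL spleen. Nr4a1 was 7.16-fold (6.64 to 7.74) higher in T-ALL than in normal bone marrow, and the T-ALL spleen level was 1.33-fold (1.28 to 1.38) under that of normal spleen. Between the T-ALL organs the ratio was 0.966 (0.929 to 1.00), and the interval included 1. Markers of Ly6C-low monocytes, a list that does not hold Nr4a1, were higher in 8 of 9 measured in T-ALL bone marrow. Their sum was 1228, 2546, 2817 and 1676 CPM in the order of libraries used for Nr4a1, and none of the 9 was at 0 reads in a library. This sum depends on its most abundant genes, since Spn and Itgal were 648 and 351 of the 1228 CPM. Spn, the 1 marker not called, was at 558 CPM in T-ALL bone marrow. Cx3cr1, Ace and Treml4 were at 35.3, 61.7 and 15.3 CPM in normal and 241, 405 and 111 CPM in T-ALL bone marrow. The part of Ly6C-low monocytes in the Nr4a1 levels was not tested.

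Ier2 encodes a small nuclear protein. It was at 203 CPM in normal bone marrow, 415 CPM in T-ALL bone marrow, 309 CPM in normal spleen and 269 CPM in T-ALL spleen. Ier2 had the narrowest range of the members, and its 2.05-fold difference in bone marrow had a counting interval, 1.94 to 2.16, that reached under 2. It was also the only member that was not called between normal spleen and normal bone marrow, at 1.52-fold (1.44 to 1.61).

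Dusp1 and Zfp36 act as brakes. DUSP1 removes phosphate from the MAP kinases p38 and JNK, and ZFP36 (tristetraprolin) binds AU-rich mRNAs, such as that of TNF, and promotes their decay. Normal bone marrow had 164 CPM of Dusp1, which reached 622, 651 and 623 CPM in T-ALL bone marrow, normal spleen and T-ALL spleen. Those 3 libraries differed by at most 1.05-fold, and the ratio of the T-ALL organs was 1.00 (0.965 to 1.04). Zfp36 was at 315, 1037, 1547.5 and 926 CPM in the same order. Per length Zfp36 was the most abundant member in every library, from 179 RPKM in normal bone marrow to 873 RPKM in normal spleen, where it ranked 82nd among all genes. It was 1.67-fold (1.63 to 1.72) lower in T-ALL than in normal spleen, under the 2-fold rule.

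In bone marrow, all 10 members were called higher in the T-ALL library relative to the library total, and 0 lower, although 9 of the 10 lay below the median fold of the macrophage core genes. Of the 9716 genes measured, 8.01% were called higher and 1.03% lower. Set against the core median, which takes the same amount off every gene, 7 of the 10 members and 97.1% of all genes were called lower. With TMM scaling that left out the genes of other cells, 9 members and 7.46% of all genes were called higher, and Ier2 was at a log2 fold of 0.99. The median log2 fold of the members was 1.82, with a range from 1.03 for Ier2 to 3.30 for Atf3, and the median over all measured genes was -0.04. With a 4-fold threshold, 3 members were called, Atf3, Nr4a1 and Junb, and 2.82% of all genes were called higher. The counts reported here for the members rest on 1 library per group.

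In spleen, 0 of the 10 members were called in either direction, although set against the macrophage core median 2 were called higher. Of 9774 measured genes, 10.3% were called higher and 11.0% lower, and set against the core median 47.0% were called higher. The median log2 fold of the members was -0.40 against -0.08 for all genes. Fos and Fosb had ratios above 1 and the other 8 below 1, from 1.05-fold lower (1.01 to 1.08) for Dusp1 to 1.72-fold lower for Egr1. Dusp1 turned to a log2 fold of 0.10 with TMM scaling that left out the genes of other cells, and all 10 were above the median fold of the macrophage core genes. With a threshold of 1.5-fold, 4 members were called lower, Jun, Junb, Egr1 and Zfp36, as were 23.9% of all genes.

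**Figure D3:**
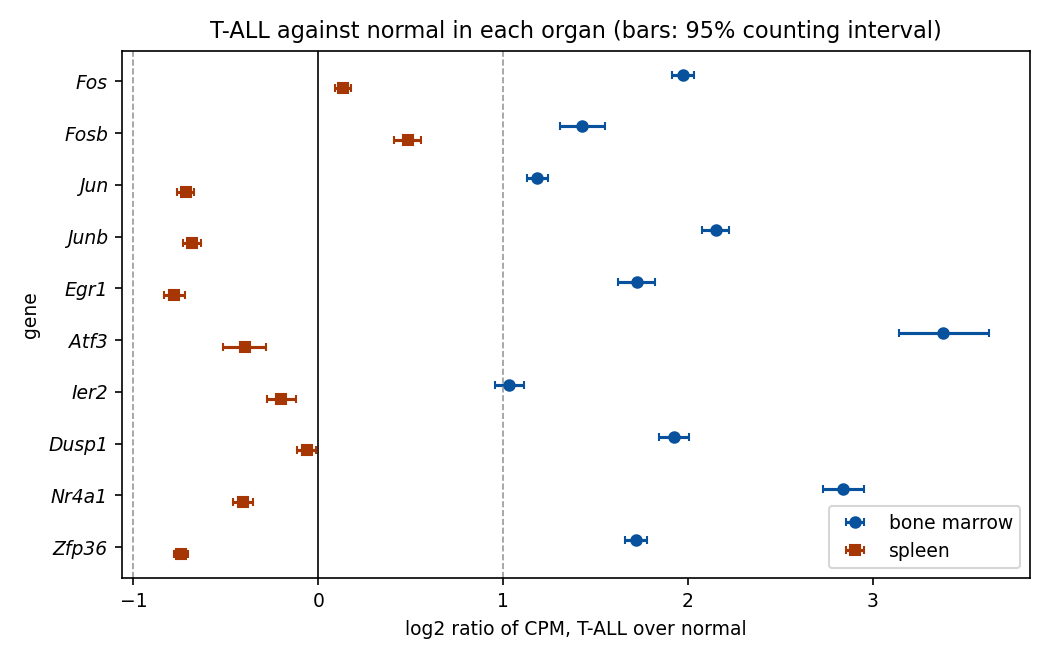
Log2 ratio of CPM, T-ALL over normal, for each member in bone marrow (circles) and spleen (squares), with 95% counting intervals; dashed lines mark 2-fold. On this scale, relative to the library total, all 10 bone marrow ratios lie above 1.0 and all 10 spleen ratios between -0.78 and 0.48; taking the median fold of macrophage core genes off every gene alike would put 9 of the bone marrow ratios below 0 and all 10 spleen ratios above it.

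The organs differed in normal mice, and no member was called between them in leukaemia. In normal mice 9 of the 10 members were called higher in spleen than in bone marrow, all but Ier2, and 0 lower, although all 10 lay below the median fold of the macrophage core genes. Of 10072 measured genes, 16.1% were called higher and 14.0% lower, and set against the core median 96.9% were called lower, with 8 of the 10 members. Their median log2 fold was 2.14, against -0.04 over all genes, and Nr4a1 and Atf3 had the widest ratios, 9.18-fold (8.51 to 9.90) and 9.56-fold (8.10 to 11.3). Between the T-ALL organs 0 members were called, with 5.44% of 9852 genes called higher in spleen and 11.0% lower, and the median log2 fold was -0.21 against 0.01. The comparisons of condition and of organ share libraries, with normal bone marrow as the low library in each comparison in which members were called.

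The macrophage core list had a median log2 fold of the same sign as the members in each comparison. Single genes differed, since Itgam and Lyz2 were lower in normal spleen than in normal bone marrow. Of its 16 genes, 14 were higher in T-ALL than in normal bone marrow and 0 lower (median log2 fold 2.98), and in spleen 0 were higher and 9 lower (median -1.02). Csf1r, which encodes the receptor of the growth factor CSF1, was at 133, 947, 2415 and 1421 CPM in normal bone marrow, T-ALL bone marrow, normal spleen and T-ALL spleen. The summed core without Lyz2 was at 1153, 4250, 8036 and 4529 CPM, and the ratio of the members' sum to it was 1.57, 1.45, 0.924 and 1.23. Lyz2, which neutrophils also express, was at 2572, 5494, 946 and 241 CPM, and with it the core summed to 3725, 9744, 8982 and 4771 CPM. The ratio of the members' sum to the full core was then 0.486, 0.634, 0.827 and 1.17, so that normal bone marrow had the highest ratio without Lyz2 and the lowest with it. Itgam, kept in both sums, was at 726, 874, 218 and 78.9 CPM in the same order. It was thus 726 of the 1153 CPM of the core without Lyz2 in normal bone marrow. These ratios therefore depend on which genes are kept in the core. Markers of other cells moved too. T cell genes were higher in 11 of 12 in T-ALL bone marrow and 10 of 12 in T-ALL spleen, summing to 211, 799, 1054.5 and 3614 CPM, and neutrophil precursor genes were lower in 8 of 11 in T-ALL bone marrow. Classical monocyte genes summed to 4069, 5293, 805 and 783.5 CPM, and Chi3l3 was 2570 of the 4069 CPM. Of this list, 4 of 8 were higher in T-ALL bone marrow, led by Fn1 (64.5 and 982 CPM) and Vcan (3.65 and 54.5 CPM). The 3 with log2 folds below 0 there, none called, were Ly6c2 (-0.49), Chi3l3 (-0.31) and Plac8 (-0.18). Mature neutrophil genes were higher in 3 of 8 there, Retnlg, Mmp8 and Mmp9, by 8.70-fold (7.90 to 9.60), 7.54-fold (6.81 to 8.36) and 6.12-fold (5.71 to 6.56), while the list summed to 15683, 14089, 336 and 122 CPM. Erythroid genes were higher in 5 of 8 there and summed to 96.7, 221, 148 and 148 CPM. The erythroid Hbb-b1 was at 3.96, 17.5, 15.4 and 19.1 CPM, low in normal bone marrow as the members were. None of the genes of these 5 lists with a read in any library was at 0 reads in another. The part of these cells in the members' levels was not tested.

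Among other immediate early genes, Klf4 and Btg2 were low in normal bone marrow as the members were, while Nr4a2, Tnfaip3 and Nab2 were highest in T-ALL spleen. Of 27 listed, 22 were measured in bone marrow, with 12 higher and 0 lower in T-ALL (median log2 fold 1.09). Klf4, Nfkbiz and Btg2 had the largest differences, at 7.31-fold (6.27 to 8.55), 4.95-fold (4.43 to 5.53) and 4.39-fold (4.08 to 4.72). Klf4 encodes a factor of monocyte differentiation, and its level was 19.4 CPM in normal bone marrow, 142 CPM in T-ALL bone marrow, 145 CPM in normal spleen and 83.6 CPM in T-ALL spleen. In spleen 5 of 24 were higher and 1 lower in T-ALL, Ier5 being the lower at 757 and 299 CPM (median of the list 0.03). The higher ones were Nr4a2, Tnfaip3, Nab2, Trib1 and Nfkbiz. Nr4a2, a paralogue of Nr4a1, was at 5.07, 15.2, 4.36 and 52.8 CPM in normal bone marrow, T-ALL bone marrow, normal spleen and T-ALL spleen, 12.1-fold (8.73 to 17.2) higher in T-ALL spleen than in normal spleen. Tnfaip3, an inhibitor of NF-kB signalling, was at 70.4, 149, 189 and 599 CPM, and Nab2, a corepressor of EGR proteins, at 12.3, 41.5, 42.4 and 131 CPM.

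MAP kinase phosphatases other than Dusp1 were higher in 4 of 7 in T-ALL bone marrow and 0 lower (median log2 fold 1.37), with Dusp4, Dusp16 and Dusp5 furthest. In spleen 2 were higher and 1, Dusp7, lower. Dusp4 was at 1.01 CPM in normal bone marrow, 15.6 CPM in T-ALL bone marrow, 9.06 CPM in normal spleen and 101 CPM in T-ALL spleen. Dusp10 was at 5.58, 10.2, 22.1 and 98.4 CPM in that order. Both were thus highest in T-ALL spleen, whereas Dusp1 was level across 3 libraries. Nr4a2, Tnfaip3, Nab2, Dusp4 and Dusp10 moved in spleen in the same direction as the T cell genes and the 12 cell cycle genes. All 12 cell cycle genes were higher in T-ALL spleen (844 CPM summed in normal and 3334.5 CPM in T-ALL spleen). In bone marrow the log2 folds of Nr4a2, Tnfaip3, Nab2, Dusp4 and Dusp10 were 1.42, 1.07, 1.68, 3.04 and 0.77. The 12 T cell genes were also above 0 there (median 1.84), and all 12 cell cycle genes were below 0 (median -0.61). The part of T cells and of dividing cells in the differences was not tested.

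Transcripts of the factors and kinases upstream of these genes were called in few cases. Of 17 measured in bone marrow, 0 were called in either direction, with a median log2 fold of -0.01. Mapk14, which encodes the kinase p38 alpha, was at 339 and 341 CPM in normal and T-ALL bone marrow. In spleen 0 were higher and 2 lower in T-ALL, Mkl1, a coactivator of SRF, and Map2k6, a kinase of p38, with a median of -0.21. Srf was at 108, 101, 124 and 122 CPM in normal bone marrow, T-ALL bone marrow, normal spleen and T-ALL spleen. Of the other AP-1 and related factors, 2 of 8 measured in bone marrow were higher in T-ALL (Fosl2 and Jund), and in spleen Maff was the 1 higher and Batf3 the 1 lower of 10.

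Heat shock genes, which stress can induce alongside immediate early genes, had another pattern as a list, with Hspa1a and Hspa1b as exceptions in both organs. In bone marrow 2 of 12 measured were higher in T-ALL, Hspa1a and Hspa1b, and the list's median log2 fold was -0.01. Hspa1a was at 2.13, 14.8, 33.7 and 22.5 CPM and Hspa1b at 3.25, 16.3, 22.7 and 15.5 CPM in normal bone marrow, T-ALL bone marrow, normal spleen and T-ALL spleen. Both were low in normal bone marrow, as the members were, although these near-identical genes share reads and their unique counts are uncertain. In spleen 7 of 12 were higher in T-ALL (median 1.08). Hspd1, Hsph1 and Hsp90aa1 were furthest, at 4.52-fold (4.28 to 4.79), 3.40-fold (3.08 to 3.74) and 3.03-fold (2.92 to 3.15). The 2 with log2 folds below 0 in spleen were Hspa1a (-0.56) and Hspa1b (-0.52), as for most members. The part of stress or handling in the members' levels was not tested.

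**Figure D4:**
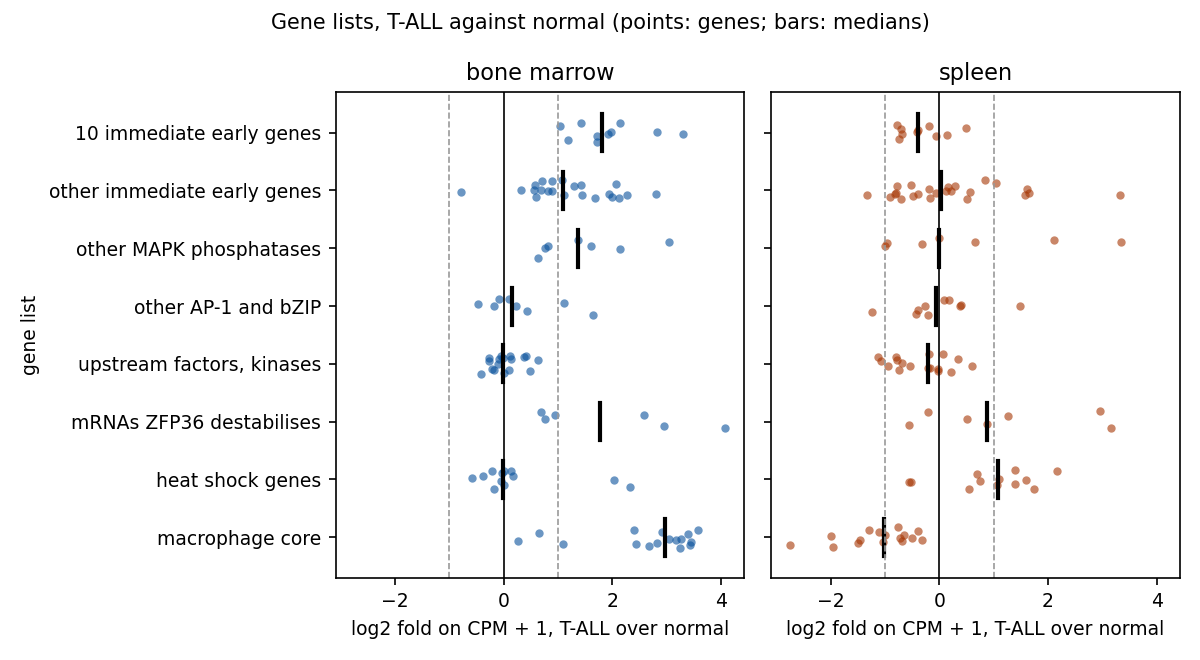
Log2 fold on CPM + 1, T-ALL over normal, of the genes of 8 lists in bone marrow (left) and spleen (right); points are genes measured at 10 CPM or more in the higher library, black bars medians and dashed lines 2-fold. Relative to the library total, the members' median is 1.82 in bone marrow and -0.40 in spleen, and that of the macrophage core genes is 2.98 and -1.02, and taking the core median off every gene moves the members' median to -1.16 and 0.62 and that of all genes to -3.02 and 0.94.

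The genes outside the members whose profile was most like the members' median over the 4 libraries were Timp2, Hspa1b, Rhoq, Psap and Inppl1. Likeness was the root mean square difference of centred log2(CPM + 1), which was 0.10 to 0.15 for these 5 among 9541 genes with a mean of 10 CPM or more. Timp2, an inhibitor of matrix metalloproteinases, was at 29.7 CPM in normal bone marrow, 107.5 CPM in T-ALL bone marrow, 119 CPM in normal spleen and 101 CPM in T-ALL spleen. Psap, the precursor of lysosomal saposins, was at 1134, 4109, 4862.5 and 3214 CPM. Among the members, Dusp1, Junb and Zfp36 lay nearest the median profile (0.12, 0.14 and 0.16), and 3, 4 and 9 other genes lay nearer than they did. Ier2, at 0.63, and Atf3, at 0.51, lay farthest, with 979 and 478 other genes nearer. With 4 points per gene, such likeness is a description only.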

How the data were processed

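Total RNA of sorted macrophages (Qiagen RNeasy kit) was sequenced from Illumina libraries made by standard protocols, per the labels. The deposited counts are uniquely mapped reads per gene, 1 table per library, per the file headers. Genes without a line were set to 0. The deposited RPKM values are those counts scaled by the listed length and the library's total, and the deposited coverage gives the percent of a gene model covered by reads (94.0% to 99.9% for the members). The sources used here name no aligner, counting rule, strand setting, genome build or annotation, so the coordinates printed are those of the RefSeq promoters alone. Symbols are those of the files; 23 that had become dates were restored by Gene ID.

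CPM were computed from the counts on TMM-scaled totals (edgeR 4.0.16 in R 4.3.3, scipy 1.17.1 and pandas 2.3.3 in Python 3.11.15). With 1 library per group no model was fitted. Fold changes are CPM ratios with exact binomial 95% intervals; log2 folds use a pseudocount of 1 CPM, which understates low genes; a gene counts as measured at 10 CPM or more in the higher library. Intervals and the floor of 3 reads cover counting error only, and PCR copies are not independent molecules. The members and the 17 other lists were chosen with earlier results of these data known. Named genes are all members, up to 3 genes past the size rule with the largest log2 fold per list and T-ALL comparison (the most abundant gene where none passed), and the 5 nearest profiles. B cell, dendritic cell and NK cell lists are given by their counts in the closing section. Named outside this rule, after their values were seen, are Ier5, Trib1, Srf, Fosl1, Tnf, Il23a, Csf1r, Itgam, Spn, Itgal, Ly6c2, Plac8, Xist and Ddx3y. No protein sequences were used. Alternatives were other scalings, pseudocounts, minimum levels, fold thresholds and the deposited RPKM.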

Additional observations from a re-analysis of the deposited data

Results flagged for a closer look

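For 8 of the 10 members the T-ALL library was above the normal library in bone marrow and below it in spleen, with both counting intervals away from 1. The difference of the log2 ratios, bone marrow minus spleen, was 3.78 (3.52 to 4.04) for Atf3, 3.25 (3.13 to 3.37) for Nr4a1 and 2.83 (2.75 to 2.92) for Junb. It was 2.50 (2.39 to 2.62) for Egr1, 2.46 (2.39 to 2.53) for Zfp36, 1.99 (1.89 to 2.08) for Dusp1, 1.90 (1.83 to 1.97) for Jun and 1.23 (1.12 to 1.34) for Ier2. The intervals are normal approximations on the log scale and cover counting error only. With 1 library for each organ and condition, the difference between organs was not tested, and none of the spleen ratios reached 2-fold. All 16 macrophage core genes also had log2 folds above 0 in bone marrow and below 0 in spleen. The share of all genes with this pattern is not given here. The count of members depends on scaling. Dusp1 was at 0.10 in spleen with TMM scaling that left out the genes of other cells, and against the core median all 10 spleen folds were above 0.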

How the results depend on the processing

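The 40 member folds (10 members in 4 comparisons) all stayed within their counting intervals with total-count scaling, with a pseudocount of 0.1 CPM and with the deposited RPKM, and 38 of 40 with a pseudocount of 5 CPM; 31 did so with median-of-ratios scaling, 19 with TMM scaling without genes of other cells and 0 against the macrophage core median. Minimums of 0, 1 and 50 CPM changed no count of members. TMM scaling without genes of other cells moved the median of all measured genes in spleen, T-ALL against normal, from -0.08 to 0.09, and the calls from 1008 higher and 1080 lower to 1305 and 758. The members' median there became -0.24, that of normal spleen against normal bone marrow 1.98 and that of the T-ALL organs -0.17. It called 9 members higher in T-ALL bone marrow, with 7.46% of all genes, and Ier2 was at 0.99. It also called 1 member (Fosb) higher between the T-ALL organs, with 6.09% of all genes. Median-of-ratios scaling called Fosb there too, with 6.26% of all genes, and the members' median was -0.16.

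The result that depended most on a choice is the direction relative to macrophage genes. With folds set against the macrophage core median, 0 members were higher and 7 lower in T-ALL bone marrow (median -1.16), 2 were higher in T-ALL spleen (median 0.62), 0 were higher and 8 lower in normal spleen against normal bone marrow (median -1.93), and 1 was higher between the T-ALL organs (median -0.019). In bone marrow the log2 folds became -1.01 for Fos, -1.56 for Fosb, -1.80 for Jun, -0.83 for Junb, -1.27 for Egr1, -1.95 for Ier2, -1.06 for Dusp1, -0.15 for Nr4a1 and -1.26 for Zfp36, while Atf3 stayed positive at 0.32. Between the normal organs they became -2.49 for Fos, -2.16 for Fosb, -2.48 for Jun, -1.63 for Junb, -1.25 for Egr1, -0.89 for Atf3, -2.08 for Dusp1, -0.89 for Nr4a1 and -1.77 for Zfp36. This follows from the construction, since 2.98 and 4.07 were taken off every gene alike: 97.1% and 96.9% of all genes were then called lower, and in T-ALL spleen 47.0% higher. Between the T-ALL organs 8.29% of all genes were called higher.

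A 1.5-fold threshold called 4 members lower in T-ALL spleen, with 23.9% of all genes. Between the T-ALL organs it called 1 member higher and 1 lower in spleen, with 14.1% and 19.1% of all genes. A 4-fold threshold left 3 members higher in T-ALL bone marrow, with 2.82% of all genes. It left 5 higher in normal spleen than in normal bone marrow, with 7.4% of all genes. Depth did not limit the members, each with 158 reads or more; the number of libraries did, and there was no replicate to leave out.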

Other observations

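Messengers that ZFP36 is known to destabilise were mostly at low levels. Of 11 listed, Il23a had no line in any table, 6 were measured in bone marrow and 7 in spleen, and 3 were higher in T-ALL in each organ with 0 lower. In bone marrow these were Cxcl2, Il1b and Ptgs2, and in spleen Il10, Cxcl2 and Ccl3. Il1b, which encodes the cytokine interleukin-1 beta, was at 18.3 CPM in normal bone marrow, 148 CPM in T-ALL bone marrow, 122 CPM in normal spleen and 105 CPM in T-ALL spleen, so that normal bone marrow was the low library as for the members. Tnf, the best known target, was at 16.8, 33.5, 32.9 and 61.2 CPM in that order and was not called in either organ. Ptgs2, which encodes the inducible cyclooxygenase, was at 6.29, 42.7, 28.0 and 18.7 CPM.

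The make-up of the members' own reads shifted between libraries. Jun held 20.5% of them in normal bone marrow and 12.2% to 15.0% elsewhere, and Ier2 11.2% against 4.16% to 6.72%. Nr4a1 held 4.30% in normal bone marrow and 9.02% to 9.63% in the other 3 libraries.

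Among lists of other cells, 1 of the 9 B cell genes measured was higher in T-ALL bone marrow and 2 were lower, and in T-ALL spleen 4 of 7 were lower. Of the dendritic cell genes, 2 of 4 measured were higher in T-ALL bone marrow, and in spleen 7 of 8 were lower and 1 higher. NK cell genes were called in 0 of 5 in bone marrow and were lower in 4 of 5 in spleen.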
